A study of Mus musculus with 18 samples.

Results

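The transcripts of 10 chaperones of the endoplasmic reticulum (ER) were followed in RNA collected from Neuro2A cells, a line from a mouse neuroblastoma. The genes were *Hspa5*, *Sdf2l1*, *Hsp90b1*, *Calr*, *Canx*, *Pdia3*, *P4hb*, *Pdia4*, *Pdia6* and *Ppib*, taken by symbol from the 168136 loci of the count table. They matched 11 loci, since *Sdf2l1* was listed at a pair of loci, and 10 of the 11 loci, 1 for each gene, were among the 15579 loci tested.

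The ER is the folding compartment for secreted and membrane proteins, and its membrane is continuous with the outer membrane of the nuclear envelope. The mRNAs of these chaperones carry a signal sequence and are translated on ribosomes bound to that membrane. Their products bind unfolded chains (the Hsp70 HSPA5, also called BiP, with its partner SDF2L1, and the Hsp90 HSP90B1), hold glycoproteins by their sugars (the lectins CALR and CANX), or form disulfide bonds and isomerise prolines (PDIA3, P4HB, PDIA4, PDIA6 and PPIB). Many of them are transcribed more strongly when unfolded proteins collect in the ER.

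The cells were wild type (WT) N2A cells, which limits the data to 1 line. They had received a biotin-tagged *miR-92b* mimic at 25 nM, a biotin-tagged scrambled RNA (Scr) at the same dose, or no transfection (control). Each treatment was used as nuclear and as whole cell lysate, with 3 samples in each of the 6 groups. Nuclei were released with a hypotonic buffer that held the detergent Nonidet P-40, RNA bound by a mimic was collected through its biotin, and oligo-dT beads were used to select RNA before stranded libraries were made. The whole cell lysate holds the nuclei too, so a nuclear to whole cell ratio is not a ratio of nucleus to cytoplasm. Nothing in the labels says that the samples of a group came from separate cultures, and the p-values measure only the spread between these samples, which may be technical.

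Each library held 3752991 to 22920038 reads at named loci. Of the markers of sympathetic neuroblastoma reported here, *Phox2a*, *Hand2*, *Gata3*, *Isl1*, *Th*, *Dbh* and *Stmn2* had reads in every sample, and no locus was matched to *Tubb3*. Of the markers of other cell types, *Ptprc*, *Alb* and *Col1a1* had a median normalized count of 0, *Pecam1* of 19.8 and *Gfap* of 41.4. *Malat1*, an RNA retained in the nucleus, had a mean of 91674 in nuclear and 44593 in whole cell samples. The third whole cell *miR-92b* sample stood apart from the other samples of its group, with a chi-square per degree of freedom of 113 and 118 against them, where the other pairs of samples within a group had 5.73 to 56.2. It held the highest whole cell value of 7 of the 10 genes (*Sdf2l1*, *Hsp90b1*, *Calr*, *Canx*, *Pdia3*, *P4hb* and *Ppib*), and results are given without it where a call rested on it.

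The sequences that bear on these genes are those of the miRNA used as bait and of the promoter element shared by several of the chaperones. The mature mouse *miR-92b*-3p from RefSeq (GRCm38.p6), encoded on chr3:89227126-89227147 on the minus strand, is shown with its seed, bases 2 to 8, in capitals, because a target 3′ UTR would pair with it.

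mmu-miR-92b-3p: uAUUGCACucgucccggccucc

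The 3′ UTR of 1 coding transcript for each of the 10 genes (the one with the longest coding part in GENCODE release M21, GRCm38) was searched for GTGCAAT, the 7-base match to this seed, and for TGCAATA, the match to bases 2 to 7 followed by A. Neither was found in any of the 10. Of 11237 protein-coding genes at tested loci, 6.81% held the first in the 3′ UTR and 12.5% held either. The UTRs searched ranged from 206 bases in *Ppib* to 2321 bases in *Canx*, around a median of 990 for all genes. The absence of these letters says nothing of other kinds of pairing.

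The ER stress response element (ERSE) is the element through which the transcription factors ATF6 and XBP1, with NF-Y, act on chaperone genes. It was searched as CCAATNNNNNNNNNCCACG on both strands, from 250 bases before to 50 bases after each RefSeq start site. An exact match lay in the promoters of 5 of the 10 genes (*Hspa5*, *Hsp90b1* with 2 matches, *Calr*, *Canx* and *Pdia6*), whereas 37 of 27025 genes in the RefSeq table, 0.137%, had one. With 1 mismatch allowed, 7 of the 10 genes and 1.72% of all genes had a match, *Pdia3* and *Pdia4* being the additional genes and *Hsp90b1* gaining another match. The sites are shown 5′ to 3′ on their own strand, with the fixed positions of the element in capitals.

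Hspa5: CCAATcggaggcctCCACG

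Hsp90b1, distal: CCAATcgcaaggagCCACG

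Hsp90b1, proximal: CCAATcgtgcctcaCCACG

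Calr: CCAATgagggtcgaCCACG

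Canx: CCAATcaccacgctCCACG

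Pdia6: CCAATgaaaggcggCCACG

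Pdia3, 1 mismatch: CCAATcggcggctgCCACA

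Pdia4, 1 mismatch: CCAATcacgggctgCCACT

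The exact sites lay at chr2:34772025-34772043 (*Hspa5*), chr10:86705638-86705656 and chr10:86705533-86705551 (*Hsp90b1*), chr8:84847075-84847093 (*Calr*), chr11:50325800-50325818 (*Canx*) and chr12:17266491-17266509 (*Pdia6*). The element of *Hspa5* was the nearest of these to its start site, ending 47 bases before it, and the distal element of *Hsp90b1* was the farthest, beginning 212 bases before it. The 250 bases before the start site of *Hspa5* (chr2:34771840-34772089, plus strand) are shown with the element in capitals.

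Hspa5 promoter: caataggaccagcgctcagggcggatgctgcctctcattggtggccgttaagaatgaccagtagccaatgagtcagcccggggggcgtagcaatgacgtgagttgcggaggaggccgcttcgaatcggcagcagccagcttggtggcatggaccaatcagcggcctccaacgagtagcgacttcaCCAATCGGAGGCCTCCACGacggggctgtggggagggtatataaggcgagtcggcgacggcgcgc

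ERSE-II, a shorter relative of the element searched as ATTGG and CCACG with any 1 base between them, had no exact match in the 10 promoters. With 1 mismatch it was found in those of *Hspa5* and *Sdf2l1*, as in 1.31% of all genes, and these matches did not overlap those of ERSE. An exact ERSE was also present in 2 of 8 genes of the Hsp70 partners with a promoter in the table (*Dnajc3* and *Creld2*) and in 2 of 6 genes of ER-associated degradation (*Syvn1* and *Derl3*). Promoters were searched for 15 of 16 glycosylation genes, 11 of 17 of the translocon and 13 of 19 other thiol oxidoreductases and prolyl isomerases. They were also searched for 11 of 12 unfolded protein response genes and 14 of 18 cytosolic chaperones. None of these had an exact ERSE. Genes with no promoter found are outside these counts. So are *Ero1l*, *Ero1lb*, *Srpr* and *Selenos*, which were listed under more than 1 symbol and not looked up. Matches are descriptions of letters, and binding was not measured.

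**Figure D1:**
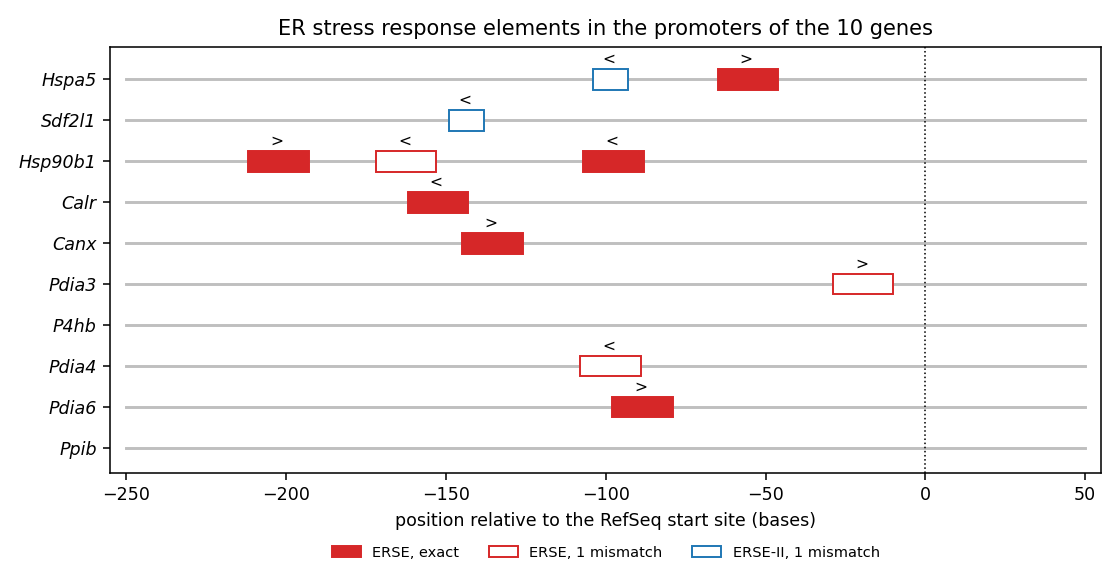
Position of ERSE and ERSE-II matches relative to the RefSeq start site (bases, 0 at the dotted line) in the promoters of the 10 genes. Filled boxes are exact matches, open boxes have 1 mismatch, and > or < gives the strand relative to the gene. Exact ERSE matches lie in 5 promoters, between 212 and 47 bases before the start.

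Levels between genes were compared as FPKM, which is relative to transcript length. In the 9 whole cell samples the median FPKM was 122 for *Canx*, 96.6 for *Calr*, 75.04 for *Hspa5*, 67.3 for *P4hb* and 64.8 for *Hsp90b1*, and the ranges of these 5 genes overlapped. *Pdia3* followed at 34.4 (24.9 to 51.1), below every value of *Hsp90b1* (56.8 to 108). *Pdia6* (25.6), *Ppib* (14.8), *Pdia4* (14.4) and *Sdf2l1* (14.02) came last, with overlapping ranges. In the 9 nuclear samples the median FPKM was 58.0 for *Hspa5*, 45.2 for *Hsp90b1*, 45.1 for *Calr*, 36.9 for *Canx*, 23.9 for *P4hb*, 16.4 for *Pdia6*, 9.41 for *Pdia3*, 7.84 for *Pdia4* and 5.82 for *Ppib*. *Sdf2l1* was lowest, with a median of 1.501 and a highest value of 3.11 that lay under the lowest value of *Ppib*, 4.03. All other neighbours in the nuclear order overlapped. *Canx* thus held the first place in whole cell and the fourth in nuclear samples, and *Pdia3* the sixth and the seventh.

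**Figure D2:**
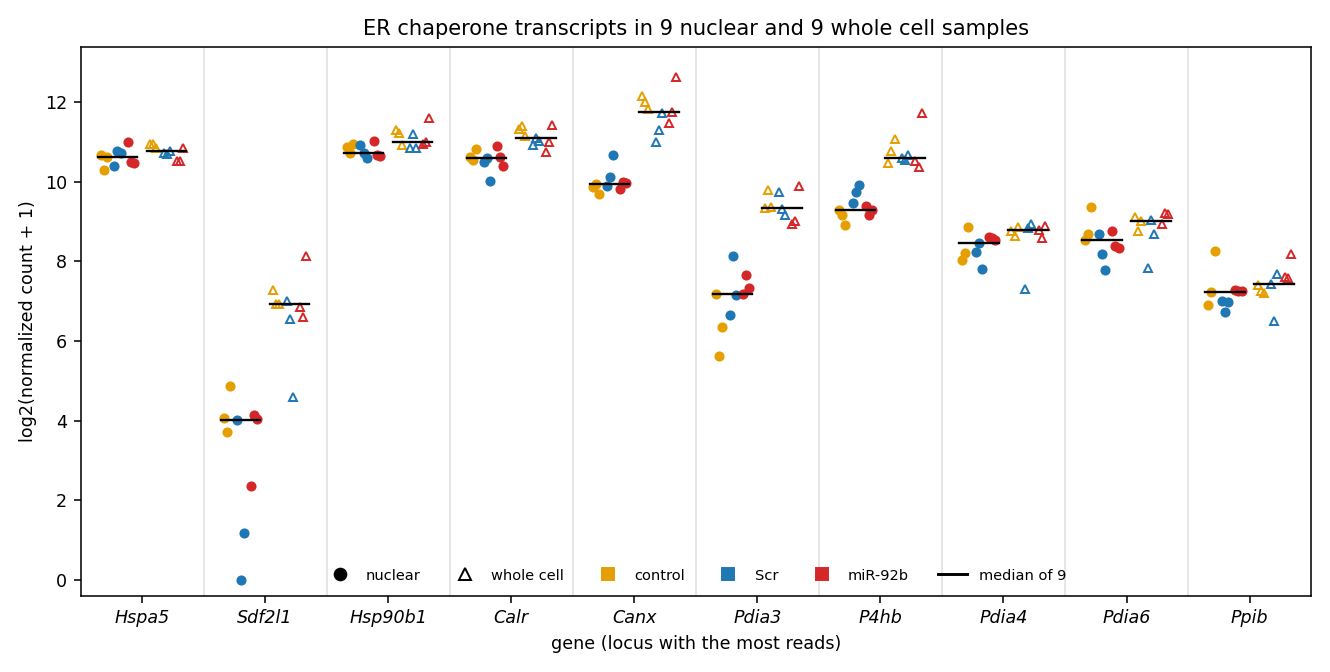
Level of each transcript, as log2(normalized count + 1), in 9 nuclear (filled circles) and 9 whole cell (open triangles) samples. Colours mark the treatment and bars the median of 9. The compartments separate for Canx, Pdia3 and P4hb, and 1 nuclear Scr sample has 0 reads of Sdf2l1.

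The levels of these transcripts were compared between nuclear and whole cell samples. RNA of the Scr and *miR-92b* samples was collected through biotin, so their ratios are of recovered RNA. Such ratios cannot show how much of a transcript the nucleus holds, and the average over treatments joins them with control. Averaged over the 3 treatments, 6 of the 10 transcripts (*Sdf2l1*, *Pdia3*, *Canx*, *P4hb*, *Calr* and *Hsp90b1*) were lower in nuclear samples and none was higher (limma on log2(normalized count + 1), Benjamini-Hochberg adjusted over all tested loci, threshold 0.05). Of all tested loci 15.8% were lower and 15.3% higher. The median log2 fold change of the 10 was −0.45, against 0.14 for all tested loci. The mean whole cell count of *Sdf2l1* was 10.4 times the nuclear one, and that of *Hspa5*, which was not called, 1.11 times. Every nuclear sample lay below every whole cell sample for *Canx*, *Pdia3* and *P4hb*, which held for 4.40% of all tested loci. Counts are relative to each library, so less RNA of a gene and more RNA of other genes in a sample cannot be told apart.

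*Hspa5* (XLOC_082933, chr2:34771970-34799912) encodes BiP, the main Hsp70 of the ER. Its normalized counts in nuclear samples were 1636, 1250 and 1565 in control, 1344, 1751 and 1692 with Scr and 2065, 1449 and 1418 with *miR-92b*. In whole cell samples they were 1980, 1982 and 1850 in control, 1706, 1670 and 1759 with Scr and 1472, 1464 and 1845 with *miR-92b*. The compartments overlapped with Scr and with *miR-92b*, and did not overlap in control. A log2 fold change of −0.16 (SE 0.10, 95% interval −0.37 to 0.05) did not pass the test (limma adjusted p = 0.251). Of all tested loci, 63.8% had a higher log2 fold change. In GENCODE M21 *Hspa5* ends at 34777547, before the end of its locus. The loci of *Pdia6* (gene to 17284770), *Ppib* (gene to 66066623), *Pdia3* (gene from 121413775) and *Canx* (gene from 50293961) also reach beyond the gene. Counts of these loci may hold reads from outside the gene, and the part of such reads was not tested.

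*Sdf2l1* (XLOC_062323, chr16:17130138-17132383) encodes a partner of BiP and its J proteins that slows the aggregation of unfolded chains. Its nuclear normalized counts were 15.9, 12.1 and 28.5 in control, 15.2, 0 and 1.26 with Scr and 4.10, 16.5 and 15.4 with *miR-92b*. The sample at 0 held 5161739 reads, and a count of 0 allows up to 3 reads there, a normalized count of 3.45. Whole cell values were 155, 120 and 121 in control, 127, 92.1 and 23.3 with Scr and 114, 97.1 and 279 with *miR-92b*. The compartments separated within each treatment and overlapped once, the lowest whole cell value (23.3, Scr) lying under the highest nuclear one (28.5, control). Its log2 fold change was −3.61 (SE 0.61, limma adjusted p = 8.53e-05), with 99.7% of tested loci higher. Nuclear samples had 0 to 49 reads of this locus, and within single treatments the call was made with Scr (adjusted p = 0.0192) and with *miR-92b* (adjusted p = 0.0224) and not in control (log2 fold change −2.82, limma adjusted p = 0.0967). It was lost with Scr when nuclear Scr sample 2 (adjusted p = 0.0686), whole cell Scr sample 1 (adjusted p = 0.0791) or whole cell Scr sample 2 (adjusted p = 0.0611) was left out, and with *miR-92b* without nuclear sample 1 (adjusted p = 0.108) or whole cell sample 3 (adjusted p = 0.115), all by limma. The Scr call of *Sdf2l1* was also lost with the compared groups alone (limma adjusted p = 0.198), a setting under which control was called (limma adjusted p = 0.00254), as it was with a pseudocount of 8 (limma adjusted p = 0.0169) and in DESeq2 (adjusted p = 0.00751).

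*Hsp90b1* (XLOC_017692, chr10:86685601-86705668), the Hsp90 of the ER, shared its locus with *Gm15344* and *Gm25745*. Its nuclear counts ranged from 1562 to 2080 with a median of 1701, and its whole cell counts from 1846 to 3105 with a median of 2035. The ranges overlapped, and the highest value belonged to the third whole cell *miR-92b* sample. The log2 fold change was −0.30 (SE 0.11, limma adjusted p = 0.0375). The call did not hold when samples were rescaled to the same median (limma adjusted p = 0.143), without a filter on low values (limma adjusted p = 0.0605) or in edgeR (adjusted p = 0.0590). It was also lost on leaving out nuclear control sample 1 or 2, nuclear Scr sample 2 or 3, nuclear *miR-92b* sample 2 or 3, whole cell control sample 1 or 2, whole cell Scr sample 2 or whole cell *miR-92b* sample 3, with limma adjusted p-values of 0.0518 to 0.0813.

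The lectins differed from each other. *Canx* (XLOC_024979, chr11:50292427-50325673) encodes calnexin, which is anchored in the ER membrane, and *Calr* (XLOC_149819, chr8:84831522-84846934) encodes calreticulin, which is soluble in the lumen. The counts of the *Calr* locus are not of *Calr* alone, since the table joins more than 1 symbol there.

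Nuclear counts of *Canx* were 934, 987 and 827 in control, 955, 1116 and 1647 with Scr and 904, 1028 and 1006 with *miR-92b*. Whole cell counts were 4581, 4129 and 3671 in control, 2058, 2528 and 3405 with Scr and 2838, 3458 and 6350 with *miR-92b*. Scr sample 3 was the highest of the nuclear samples, and of the whole cell samples Scr sample 1 was the lowest and *miR-92b* sample 3 the highest. The mean whole cell count was 3.51 times the nuclear one, and the log2 fold change was −1.77 (SE 0.14, limma adjusted p = 1.63e-09). Without the third whole cell *miR-92b* sample it was −1.65 (limma adjusted p = 1.73e-11). It was lower in nuclear samples in control (−2.17, limma adjusted p = 1.73e-06), with Scr (−1.11, limma adjusted p = 0.00910) and with *miR-92b* (−2.02, limma adjusted p = 6.66e-06), and the Scr call was lost without whole cell Scr sample 3 (limma adjusted p = 0.0670) and with FPKM (−0.70, limma adjusted p = 0.274).

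*Calr* had nuclear counts of 1581, 1506 and 1826 in control, 1437, 1563 and 1045 with Scr and 1927, 1569 and 1357 with *miR-92b*. Its whole cell counts were 2576, 2686 and 2271 in control, 1952, 2211 and 2074 with Scr and 1733, 2059 and 2744 with *miR-92b*. The compartments separated in control and with Scr and overlapped with *miR-92b*. *Calr* had a log2 fold change of −0.56 (SE 0.11, limma adjusted p = 0.000451). Within treatments the main test called it in control alone (−0.62, limma adjusted p = 0.0410). That call was lost on leaving out any 1 of the 6 control samples (limma adjusted p = 0.0613 to 0.150). It was also lost without a filter on low values (limma adjusted p = 0.0730) and in edgeR (adjusted p = 0.0510). The values were −0.64 with Scr (limma adjusted p = 0.0510) and −0.42 with *miR-92b* (limma adjusted p = 0.151). DESeq2 called *Calr* lower in control (adjusted p = 0.0164) and with Scr (adjusted p = 0.0279). With *miR-92b* the lowest adjusted p over the other limma settings was 0.0115. Whether the effects with Scr and *miR-92b* differ from that in control was not tested.

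The disulfide isomerases fell into a pair with large differences and a pair without a call. *Pdia3* (XLOC_085201, chr2:121392631-121438687) encodes ERp57, which works on the glycoproteins held by the lectins. Its nuclear counts were 144, 48.4 and 80.7 in control, 99.0, 280 and 141 with Scr and 143, 202 and 161 with *miR-92b*. Its whole cell counts were 644, 887 and 663 in control, 858, 638 and 575 with Scr and 492, 520 and 955 with *miR-92b*. The lowest whole cell value, 492, was above the highest nuclear value, 280. The log2 fold change was −2.37 (SE 0.22, limma adjusted p = 1.58e-08), with values of −3.11 in control, −2.10 with Scr and −1.90 with *miR-92b*, each past the threshold (limma adjusted p = 5.02e-06, 0.00194 and 0.00166). With FPKM the Scr compartments overlapped and the Scr call of *Pdia3* was lost (−0.96, limma adjusted p = 0.260).

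*P4hb* (XLOC_028186, chr11:120560298-120573253) encodes protein disulfide isomerase, which is also the beta subunit of the enzyme that hydroxylates prolines of collagen. Its nuclear counts were 622, 575 and 484 in control, 713, 861 and 962 with Scr and 673, 575 and 626 with *miR-92b*. Its whole cell counts were 1417, 1766 and 2165 in control, 1550, 1495 and 1623 with Scr and 1483, 1324 and 3411 with *miR-92b*. The 3 nuclear Scr samples were the highest of the nuclear samples and still lay below every whole cell sample. The log2 fold change was −1.38 (SE 0.15, limma adjusted p = 1.43e-07). It was −1.65 in control (limma adjusted p = 9.17e-05), −0.89 with Scr (limma adjusted p = 0.0417) and −1.59 with *miR-92b* (limma adjusted p = 0.000161). The Scr call was lost on leaving out any 1 of the 6 Scr samples (limma adjusted p = 0.0551 to 0.109), with FPKM (limma adjusted p = 0.0863), without a filter on low values (limma adjusted p = 0.105) and in edgeR (adjusted p = 0.0521).

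*Pdia4* (XLOC_127501, chr6:47795844-47813473, joined with *Mir704*) and *Pdia6* (XLOC_028743, chr12:17266545-17329359), which encode the isomerases ERp72 and P5, did not pass the test. *Pdia4* ranged from 224 to 464 (median 354) in nuclear and from 156 to 488 (median 440) in whole cell samples, and *Pdia6* from 221 to 664 (median 371) and from 228 to 593 (median 520). The compartments overlapped for both genes, and the lowest whole cell value of each was that of Scr sample 1. The log2 fold changes were −0.25 for *Pdia4* (95% interval −0.64 to 0.14, limma adjusted p = 0.330) and −0.34 for *Pdia6* (−0.69 to 0.01, limma adjusted p = 0.131). Without whole cell Scr sample 1 both were called lower, *Pdia4* at −0.42 (limma adjusted p = 0.0300) and *Pdia6* at −0.46 (limma adjusted p = 0.0320), and the count of called transcripts rose from 6 to 8.

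*Ppib* (XLOC_153493, chr9:66060222-66069719) encodes cyclophilin B, a prolyl isomerase of the ER. Its counts ranged from 106 to 304 (median 151) in nuclear and from 90.1 to 293 (median 172) in whole cell samples. They overlapped over the 9 samples and separated with *miR-92b* only, where the nuclear samples held 154, 151 and 153 and the whole cell samples 193, 190 and 293. For *Ppib* the log2 fold change was −0.22 (95% interval −0.69 to 0.25, limma adjusted p = 0.485). On the FPKM scale nuclear values of 4.03 to 11.5 and whole cell values of 9.28 to 40.6 overlapped over the 9 samples and separated within each treatment. On log2(FPKM + 0.1) limma called the gene lower in nuclear samples at −1.45 (adjusted p = 0.00132).

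**Figure D3:**
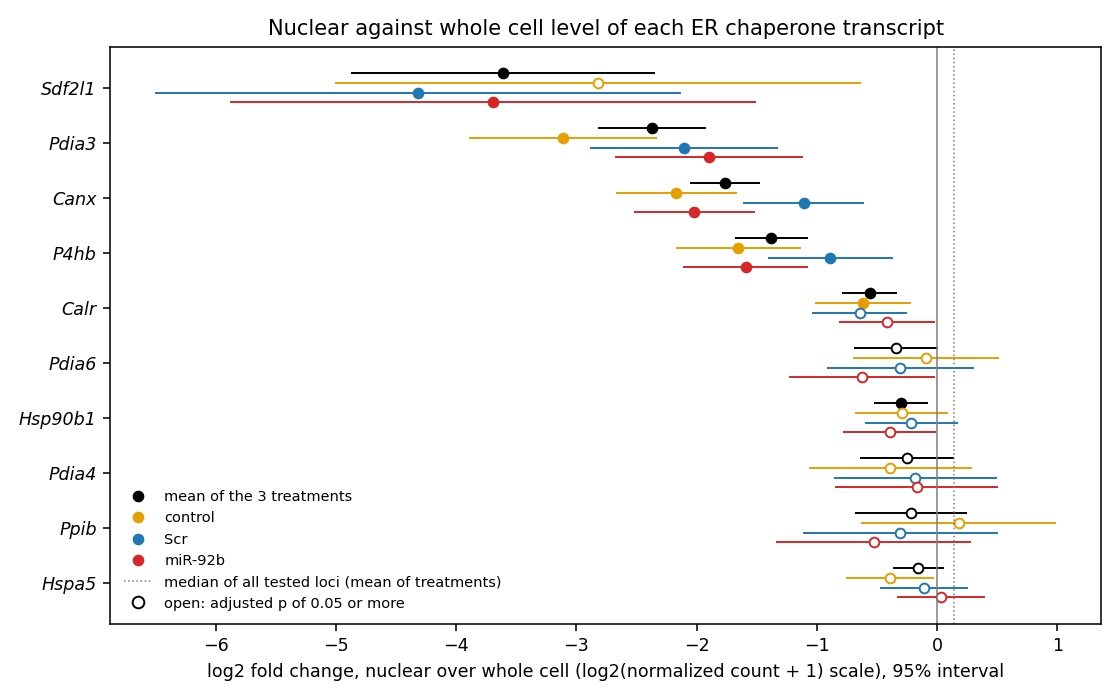
Log2 fold change of nuclear over whole cell samples for each gene, averaged over treatments (black) and within each treatment (colours), with 95% intervals. Filled points have an adjusted p below 0.05, and the dotted line is the median of all tested loci, 0.14. Sdf2l1, Pdia3, Canx and P4hb lie farthest to the left, and Hspa5 lies nearest to 0.

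Within single treatments 4 of the 10 transcripts were lower in nuclear samples in control, where 6.91% of all tested loci were, 4 with Scr against 3.70% and 4 with *miR-92b* against 6.63%. *Canx*, *Pdia3* and *P4hb* were called in all 3 treatments, *Calr* was the fourth in control and *Sdf2l1* the fourth with Scr and with *miR-92b*. Of the 4 Scr calls, *Sdf2l1* alone held with FPKM, and none of *Sdf2l1*, *Canx*, *Pdia3* and *P4hb* held under every alternative run. None was higher in any treatment, where 2.94%, 1.46% and 6.66% of tested loci were. In control all nuclear samples lay below all whole cell samples for 6 genes (*Hspa5*, *Sdf2l1*, *Calr*, *Canx*, *Pdia3* and *P4hb*), as for 19.4% of tested loci. With Scr this held for 5 genes (all of these except *Hspa5*) and for 11.6% of loci, and with *miR-92b* for 6 (*Sdf2l1*, *Canx*, *Pdia3*, *P4hb*, *Pdia6* and *Ppib*) and 16.5% of loci. Rescaling the samples to the same median moved the median log2 fold change of all loci in control from 0.06 to 0.18 and the calls over all loci from 458 higher and 1077 lower to 777 higher and 894 lower. *Calr* was then not called in control (limma adjusted p = 0.114), and 3 of the 10 transcripts were.

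The 5 genes with an exact ERSE had log2 fold changes of −1.77 (*Canx*), −0.56 (*Calr*), −0.34 (*Pdia6*), −0.30 (*Hsp90b1*) and −0.16 (*Hspa5*), side by side with −3.61 (*Sdf2l1*), −2.37 (*Pdia3*), −1.38 (*P4hb*), −0.25 (*Pdia4*) and −0.22 (*Ppib*) in the genes without one. By median FPKM in nuclear samples, *Hspa5*, *Hsp90b1*, *Calr* and *Canx* held the first 4 places and *Pdia6* lay below *P4hb*, which has no match. In whole cell samples *P4hb* (67.3) lay above *Hsp90b1* (64.8) as well, with overlapping ranges. These values are given as a description of the 10 genes.

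A normalized count set over the FPKM of the same locus gives the transcript length that the FPKM estimate used. It was scaled in each sample to loci with 1 gene and 1 annotated transcript of at least 1000 bases, and was taken for samples with at least 50 reads of the locus. For *Ppib* this implied length was 2665 to 3513 bases (median 3421) in nuclear and 971 to 2441 bases (median 1326) in whole cell samples, with no overlap. The annotated coding transcript of *Ppib* is 892 bases long, and a transcript of 3305 bases that retains an intron is annotated too. The nuclear median was 2.58 times the whole cell one, and 0.948% of 6436 loci with enough reads in all samples had a higher ratio. *Pdia4* was the other gene without overlap (4713 to 6043 bases in nuclear and 3252 to 4591 in whole cell samples, ratio 1.35), and 4.26% of these loci had every nuclear sample above every whole cell sample. Ratios were 1.42 for *Calr*, 1.27 for *Hsp90b1*, 1.15 for *Hspa5*, 1.11 for *Pdia6*, 1 for *P4hb* and 0.837 for *Canx*, around a median of 1.05 over the loci. *Pdia3*, with a ratio of 0.765, had enough reads in 8 of the 9 nuclear samples, and *Sdf2l1* in none of them. The whole cell median exceeded the longest annotated transcript for *Hsp90b1* (4259 against 3222 bases), *Calr* (3164 against 2184) and *Pdia4* (4028 against 2399). It also did for *P4hb*, *Pdia6* and *Sdf2l1*, and did not for *Hspa5*, *Canx*, *Pdia3* and *Ppib*. With FPKM, 8 of the 10 transcripts were called lower, against 16.1% of all tested loci, *Pdia4* (−0.74, limma adjusted p = 0.0209) and *Ppib* being added. The part of intron-holding RNA in these values was not tested, and *Ppib* overlaps the gene *Snx22* on the opposite strand over 330 bases, for which the use of strand in counting is not given in the sources used here.

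**Figure D4:**
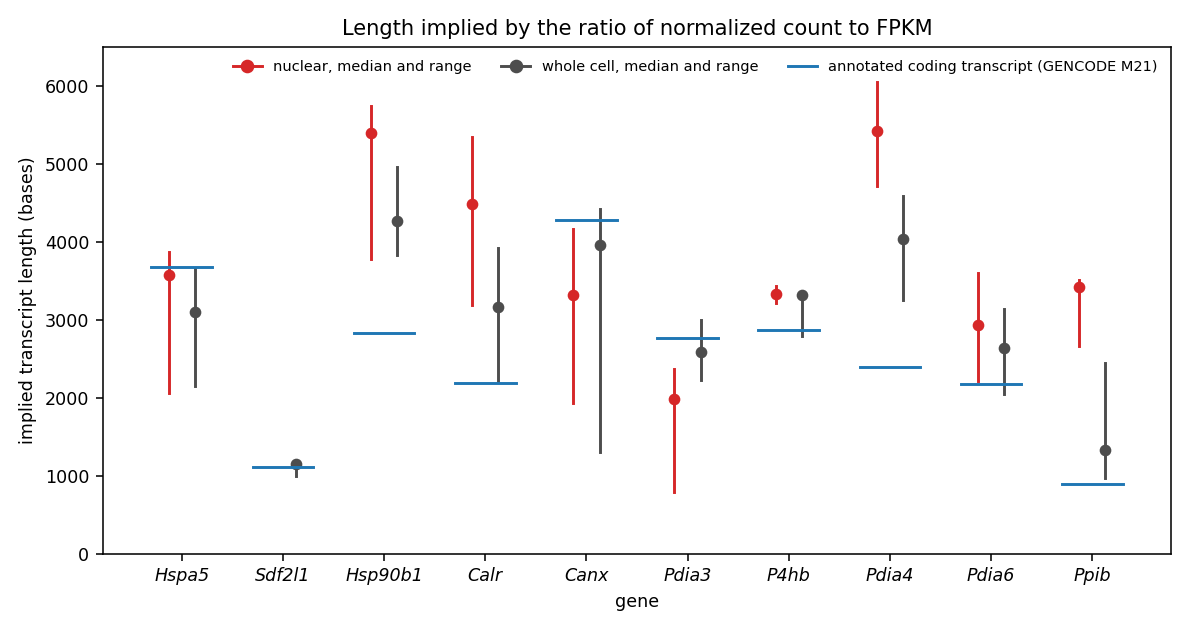
Transcript length implied by the ratio of normalized count to FPKM (bases), as median (point) and range (line) over nuclear (red) and whole cell (grey) samples with at least 50 reads, beside the length of the annotated coding transcript (blue). The nuclear and whole cell ranges do not overlap for Ppib and Pdia4, and Sdf2l1 has no nuclear sample with enough reads.

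No transcript of the 10 was called between *miR-92b* and Scr (limma adjusted p below 0.05), in nuclear samples (0% of all tested loci), in whole cell samples (0.00642%) or in the difference between the compartment effects (0.00642%). At an unadjusted p below 0.05 the counts of the 10 were 0, 1 and 1, where 4.41%, 9.72% and 7.21% of all tested loci were, and edgeR and DESeq2 called 0 in each. In nuclear samples the log2 fold changes ranged from −0.43 for *P4hb* (95% interval −0.95 to 0.09) to 1.77 for *Sdf2l1* (−0.41 to 3.96), and *Hspa5* was at 0.03 (−0.34 to 0.40). In whole cell samples *Canx* was at 0.60 (0.10 to 1.11, limma adjusted p = 0.446), and its value without the third *miR-92b* sample was 0.27. The nuclear to whole cell log2 fold change of *Canx* with *miR-92b*, minus that with Scr, was −0.91 (95% interval −1.62 to −0.20, limma adjusted p = 0.683). Without the third whole cell *miR-92b* sample it was −0.57. The paper, with Cuffdiff on the same libraries, reported genes that differed between *miR-92b* and Scr in both kinds of lysate. It listed ER quality control among the pathways most enriched in whole cell samples. Which of the 10 genes it called was not looked up.

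The rest of the ER machinery was described from lists of genes by role. The counts of called genes in each list stand beside 15.8% of all tested loci lower and 15.3% higher in nuclear samples. The loci named here for *Tmx2*, *Sec11a*, *Mbtps2*, *Hspa8*, *Cct4*, *Neat1* and *Rian* join further symbols, so their values are not of 1 gene alone. Of 11 Hsp70 partners 4 were lower and 2 higher in nuclear samples, with a median log2 fold change of 0.06. *Hyou1*, the large nucleotide exchange factor of BiP, was lower (−0.67 ± 0.12 SE, limma adjusted p = 0.000103), as were *Dnajb11* (−1.31) and *Dnajc3* (−0.53), whereas the J proteins *Dnajc1* (0.56) and *Dnajc10* (0.76), the latter with a thioredoxin fold, were higher. *Sec63*, with a mean count of 1137, was not called (−0.20, limma adjusted p = 0.158).

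Of 16 tested thiol oxidoreductases and prolyl isomerases outside the 10 genes, 7 were lower and none was higher (median −0.46). *Tmx4* (−0.40), *Tmx2* (−0.63) and *Erp29* (−0.53) were the called genes with the highest means, and *Ero1l*, which reoxidises the isomerases, was not called (−0.31, limma adjusted p = 0.0680). Of 16 genes of N-glycosylation and glycoprotein quality control, which make and read the sugars that the lectins bind, 11 were lower and none was higher (median −0.54). Subunits of the oligosaccharyltransferase were among them, *Stt3b* at −0.78 and *Rpn2* at −0.89, with the mannosidase-like *Edem1* at −0.39. *Uggt1*, the folding sensor that returns glycoproteins to the lectins, was not called (−0.10, limma adjusted p = 0.503).

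Of 17 genes of the translocon and signal peptidase, through which the chains enter the ER, 10 were lower and 1 was higher (median −0.61). *Ssr3* (−0.90), *Sec61a1* (−0.65) and *Spcs3* (−0.72) were lower, *Sec11a* was higher (0.66), and *Sec61a2* was not called (0.30, limma adjusted p = 0.110). Of 12 sensors and factors of the unfolded protein response 4 were lower and 1 was higher (median −0.12). *Atf4* was lower (−1.49 ± 0.16 SE), with *Mbtps2* (−0.65) and *Ppp1r15a* (−0.62), *Ern1*, which encodes the sensor IRE1, was higher (0.51 ± 0.13 SE), and *Mbtps1* was not called (−0.04, limma adjusted p = 0.755). Of 9 tested genes of ER-associated degradation 2 were lower, *Vcp* (−0.44) among them, 1 was higher, *Derl1* (0.50), and *Sel1l* was not called (0.21, limma adjusted p = 0.288), with a median of −0.42.

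Chaperones of the cytosol, whose mRNAs are translated on free ribosomes, were compared as the list outside the ER. Of 18 genes 16 were lower in nuclear samples and none was higher, with a median of −0.96. *Hsp90ab1* (−2.69 ± 0.16 SE), *Hspa8* (−2.91 ± 0.21 SE) and *Cct4* (−0.73 ± 0.15 SE) were the called genes with the highest means, and *Hsph1* was not called (−0.34, limma adjusted p = 0.182). Of 5 tested RNAs known to be retained in the nucleus 3 were higher, *Malat1* (1.08), *Neat1* (1.06) and *Kcnq1ot1* (0.98), and none was lower, with *Rian* at 0.61 (limma adjusted p = 0.0984) and a median of 1.06. Within treatments 3 of these 5 were higher in control, 0 with Scr (median 0.77) and 3 with *miR-92b*. Of all tested loci 2.94%, 1.46% and 6.66% were. None was called lower, and the lowest value in control was −1.08. The lists were chosen with results of these data known and their differences were not tested, so the medians are descriptions beside the 0.14 of all tested loci. The counts are likewise descriptions beside the 15.8% lower and 15.3% higher of all tested loci. Rescaling moved the median of all tested loci to 0.23, and the shares of loci called after it are not given here. When samples were rescaled to the same median, the unfolded protein response list held 3 higher and 3 lower genes, the glycosylation list 1 and 9, the translocon list 2 and 9, the degradation list 2 and 2, the Hsp70 partners 2 and 3, the thiol oxidoreductases 0 and 5, the cytosolic chaperones 0 and 16 and the nuclear-retained RNAs 3 and 0.

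**Figure D5:**
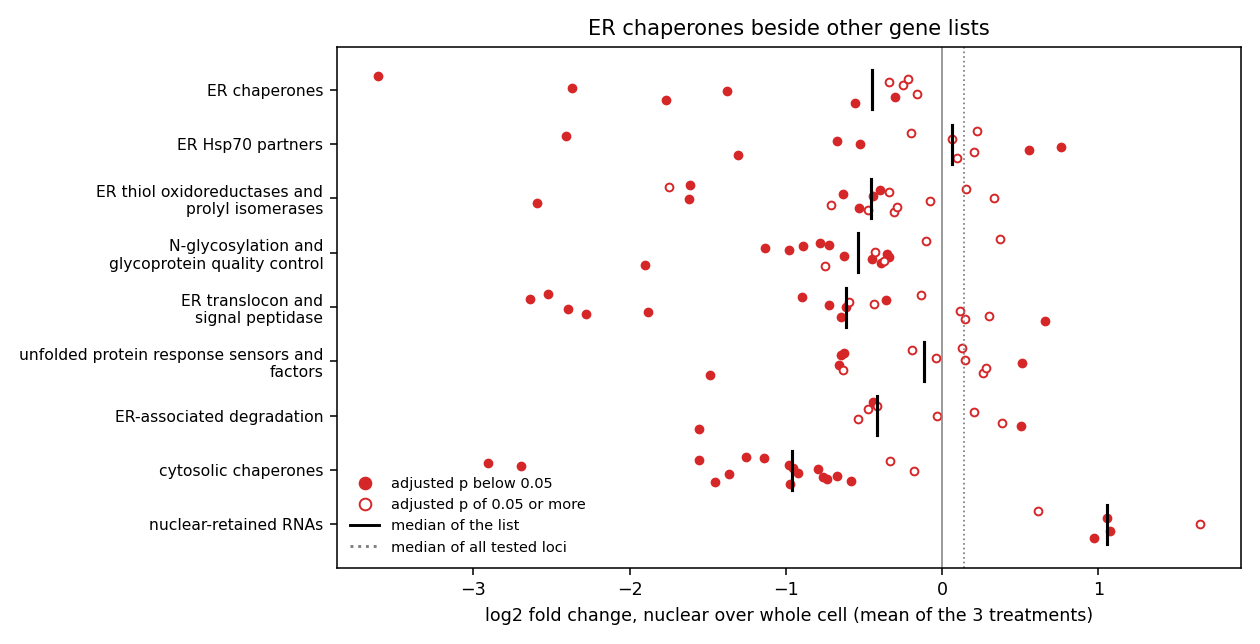
Log2 fold change of nuclear over whole cell samples, averaged over treatments, for each gene of the lists. Filled points have an adjusted p below 0.05, black bars are list medians and the dotted line is the median of all tested loci. The ER chaperones have a median of −0.45, the cytosolic chaperones of −0.96 and the nuclear-retained RNAs of 1.06.

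Over the 18 samples, the standardized log2 levels of the 10 genes were averaged to a common profile. *Calr* followed it most closely (Pearson's r = 0.932) and *Ppib* least (0.488), with *Hspa5* at 0.561. Each of the 10 genes is part of this profile, which raises its own r, and the other loci are not. Of the other tested loci, those with the most similar profile were the locus of *Mthfd2* with *Gm43890* (r = 0.974), a mitochondrial enzyme of folate metabolism, *Rbbp7* (0.971), the locus of *Eif4a1* (0.955), *Grn* (0.953), which encodes progranulin, and *Bmpr1a* (0.952). The samples share 2 compartments and their libraries, which set much of such a correlation, and no test was made of it.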

How the data were processed

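RNA from nuclear and whole cell lysates of N2A cells was sequenced in 18 samples. The authors trimmed the reads with Trimmomatic 0.30 after bcl2fastq 2.17, aligned them with TopHat2 to GRCm38 (mm10), and assembled and quantified loci with Cufflinks and Cuffdiff. Their versions, the annotation and strand settings were not given in the sources used here. Normalized counts were deposited as a signal: fragments at each locus over the size factor of that sample. FPKM, deposited in a second table, is relative to transcript length and library size. Comparison tables of the authors hold fold changes, p-values and q-values and were not used.

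As 635205 of the 635205 nonzero values (100%) were whole numbers of reads within 0.02 reads, the reads were recovered and went into edgeR 4.0.16 and DESeq2 1.42.0. The 115957 loci without a symbol held 4.51% to 15.3% of reads and were left out. Of 52179 loci with a symbol, 15579 were tested, those averaging 10 or more normalized counts.

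The main test was that of limma 3.58.1 (R 4.3.3, trend = TRUE), two-sided, in which 1 model held the 18 samples in 6 groups and the response was log2(normalized count + 1). P-values were adjusted after Benjamini and Hochberg, with a threshold of 0.05. Fold changes on this scale understate the change of low genes. Samples were grouped from their titles. Alternatives were pseudocounts of 0.5 and 8, no filter or a mean of at least 50, log2(FPKM + 0.1), samples rescaled to the same median, the compared groups alone, the sample number as a block, edgeR, DESeq2 and each sample left out. The test was checked on simulated data. The floor of 3 reads covers counting error only.

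Named from each list were up to 3 called loci per direction with the highest mean and the uncalled locus with the highest mean. The 5 loci most like the mean profile were named too. Values of some genes on the lists are not reported here. The 10 genes and the lists were chosen with earlier results of these data known. Copies were sought with blastn 2.17.0: the pseudogenes *Calr-ps* and *Gm6655* were listed at 0, and the *Ppib* pseudogene *Gm7588*, 88.1% identical over 523 bases, matched no locus, so that reads of *Ppib* may be shared with it.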

Additional observations from a re-analysis of the deposited data

Results flagged for a closer look

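The second locus listed for *Sdf2l1* (XLOC_059562), with the same coordinates as the tested one, held reads outside the tests. It had 10 reads in the second whole cell *miR-92b* sample and 0 in each of the other 17 samples, the 6 control samples among them. In that sample the tested locus had 68 reads, so the calls for *Sdf2l1* above do not count these 10.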

How the results depend on the processing

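Of the 10 transcripts, between 5 and 8 were called lower in nuclear samples averaged over treatments under all alternatives run, and *Sdf2l1*, *Pdia3*, *Canx*, *P4hb* and *Calr* were called in each. Over 45 pairs of same-numbered samples in different groups, deviations from the group mean correlated at −0.044 to 0.109. Pairs with unlike sample numbers were not compared, so these values cannot show whether same-numbered samples shared a culture or batch. With the number as a block the counts of called transcripts were 6 averaged over treatments and 4 within each treatment, and the block moved the calls over all loci between *miR-92b* and Scr from 1 to 2 in whole cell samples and from 1 to 0 in the difference of effects. It changed no call of the 10. In Scr the count of called transcripts was 1 (*Sdf2l1*) with FPKM and 2 to 3 with 1 sample left out, the cause of which was not tested. Low counts limit *Sdf2l1*, with at most 49 nuclear reads.

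Over all loci the calls in control were 3108 with the compared groups alone and 850 (without nuclear sample 3) to 1287 with 1 sample left out. In Scr they were 399 without a filter, 1288 in DESeq2 and 386 (without whole cell sample 3) to 1052 with 1 sample left out. With *miR-92b* they were 597 with the compared groups alone and 975 (without whole cell sample 3) to 2914. Between *miR-92b* and Scr they were 5 without a filter, 1 with FPKM, 1 in DESeq2 and 0 to 49 (without nuclear Scr sample 1) with 1 sample left out in nuclear samples. In whole cell samples they were 2 with a pseudocount of 8, 3 without a filter, 2 with FPKM, 0 with the compared groups alone, 176 in DESeq2 and 2 to 77 (without *miR-92b* sample 1) with 1 sample left out. In the difference they were 0 with a pseudocount of 0.5, without a filter, at a mean of at least 50, on rescaling and with the compared groups alone, 2 with FPKM, 40 in DESeq2 and 0 to 5 (without nuclear Scr sample 1) with 1 sample left out. The causes were not tested.

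Direction turned only in values that were not called. With FPKM, *Ppib* was at −1.26 in control, and *Hspa5* at 0.19 in Scr and −0.40 with *miR-92b*. Between *miR-92b* and Scr with FPKM, *Hspa5* was at −0.46, *Hsp90b1* at −0.14, *Calr* at −0.10 and *Pdia3* at −0.75 in nuclear samples (*Pdia3* −0.0523 in DESeq2), and *Hspa5* at 0.14 in whole cell samples. In the difference with FPKM, *Hspa5* was at −0.59, *Calr* at −0.24, *Pdia3* at −0.65 and *Pdia4* at −0.0876, and *Sdf2l1* was at −0.37 with a pseudocount of 8. On rescaling *Pdia6* was at 0.0286 in control.

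With 1 sample left out, the ranges that crossed 0 were −0.35 to 0.0719 (*Pdia6*) and −0.21 to 0.46 (*Ppib*) in control, −0.18 to 0.0084 (*Hspa5*) and −0.71 to 0.10 (*Pdia4*) in Scr, and −0.14 to 0.14 (*Hspa5*) with *miR-92b*. Between *miR-92b* and Scr they were −0.14 to 0.13 (*Hspa5*), −0.25 to 0.49 (*Pdia3*) and −0.0909 to 0.11 (*Hsp90b1*) in nuclear samples, and −0.14 to 0.20 (*Calr*), −0.43 to 0.0502 (*Pdia3*), −0.13 to 0.69 (*Pdia4*), −0.0031 to 0.33 (*Hsp90b1*) and −0.15 to 0.53 (*P4hb*) in whole cell samples. In the difference they were −0.13 to 0.62 (*Pdia3*), −0.24 to 1.77 (*Sdf2l1*), −0.28 to 0.54 (*Pdia4*), −0.0336 to 0.25 (*Hspa5*), −0.58 to 0.0253 (*Pdia6*), −0.46 to 0.13 (*Ppib*) and −0.30 to 0.0318 (*Hsp90b1*).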
